A study of Mus musculus with 55 samples.

Results

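The sine oculis homeobox genes (named Six2 to Six6 here) and their Eya and Dach cofactors were followed through islets that lost Eed, a subunit of Polycomb repressive complex PRC2 that is needed for the repressive mark H3K27me3. The 9 genes are Six2, Six3, Six4, Six5, Six6, Eya1, Eya2, Eya4 and Dach1, out of 47937 counted genes, and they were chosen by their bulk RNA-seq levels in βEedKO and wild-type islets together with their family membership. Differences between βEedKO and the other genotypes are therefore given as a description of these genes and not as a test of them. Comparisons of heterozygous with wild-type islets and of wild-type islets at both ages did not enter that choice, although the wild-type libraries did. A list of partner and target genes was drawn up from the known network, but with earlier results of these data known, so its values are a description too.

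Whole islets were isolated from C57B6/J mice at 8 and 25 weeks of age, and their RNA was sequenced in 16 TruSeq libraries. Wild type (WT) had 3 libraries at each age. Heterozygous mice (HET), for which the labels state only that genotype, had 3 libraries at 8 weeks and 2 at 25 weeks. βEedKO, with floxed Eed alleles recombined by a Cre driven by the insulin promoter (RIP-cre), had 3 libraries at 8 weeks and 2 at 25 weeks. The Cre acts in β cells, so other islet cells keep Eed. The methods describe the libraries as biological replicates that each hold islets of very few animals, with more animals pooled per library for βEedKO at 25 weeks than for the other groups, so at that age genotype and pool size cannot be told apart. The paper reports overt diabetes in all older βEedKO mice, with islets whose expected β cells mostly lacked hormones, whereas the younger ones were glucose tolerant. In the older libraries genotype therefore cannot be told apart from diabetes or loss of β cell identity either. The same holds for differences between the ages in the βEedKO effect, and the part of diabetes in these values was not tested. Totals ran from 4645393 to 22925359 counted reads per library. Levels are given as CPM, reads scaled to the library total with TMM factors.

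Sine oculis homeobox proteins are homeodomain transcription factors, Eya proteins are coactivators with phosphatase activity that the homeodomain factors carry into the nucleus, and Dach proteins are cofactors that modulate the complex, often towards repression. With Pax factors upstream they form a network that is used again and again in the embryo, in eye, ear, kidney, muscle and neural crest derivatives. SIX2 and SIX3 are known from human islets as factors of the adult β cell.

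In the chromatin-state segmentation of wild-type islets, which gives each 200 bp bin 1 of 24 letters in the file, the 9 genes fell on both sides of the divide between active and Polycomb chromatin. The starts of Six2 and Eya2 lay in state L, and those of Six3, Six6 and Eya4 in state M. Both states are bivalent, that is, they carry the active mark H3K4me3 beside H3K27me3. The starts of Six4, Six5 and Eya1 lay in state B and that of Dach1 in state A, both of them active start site states. Of 28877 annotated genes with a state, 10.5% had L, 5.62% had M, 11.3% had B and 23.1% had A at the start. With every annotated coding transcript start in place of the gene's 5′ end, 5 of 9 genes again had a Polycomb or bivalent start, although 1 of the 2 starts of Eya2 was in state X, a quiescent state.

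On build GRCm38 with the GENCODE annotation, Six2 spans chr17:85684277-85688274 (minus strand), Six3 spans chr17:85613608-85629302 (plus strand), Six6 spans chr12:72939892-72944899 (plus strand) and Six4 spans chr12:73099609-73113456 (minus strand). Six5 spans chr7:19094594-19098549 (plus), Eya1 spans chr1:14168954-14310235 (minus), Eya2 spans chr2:165595032-165771727 (plus), Eya4 spans chr10:23102963-23350786 (minus) and Dach1 spans chr14:97786853-98169765 (minus).

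The domains differed in extent. Six2 and Six3 are neighbours on chromosome 17 with starts 74666 bp apart, and both starts lay in 1 unbroken run of bivalent or Polycomb states of 131.6 kb. The corresponding run was 35.6 kb around the start of Eya4, 25 kb around Six6 and 14.8 kb around Eya2. In the 10 kb to each side of the start, bivalent states covered 100% at Six2, 98% at Six3 and 84.5% at Six6, but 31% at Eya4 and 24% at Eya2. Active or transcribed states covered 96% of that window at Dach1, 71.0% at Six5, 46.7% at Six4 and 35.8% at Eya1, and 0% at the other 5 genes. Bivalent or Polycomb states covered 49.3% of the window at Six4 and 37.2% at Eya1, beyond their active starts. Six6 and Six4 share a region of chromosome 12, with starts 173564 bp apart, and had opposite kinds of start.

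**Figure D1:**
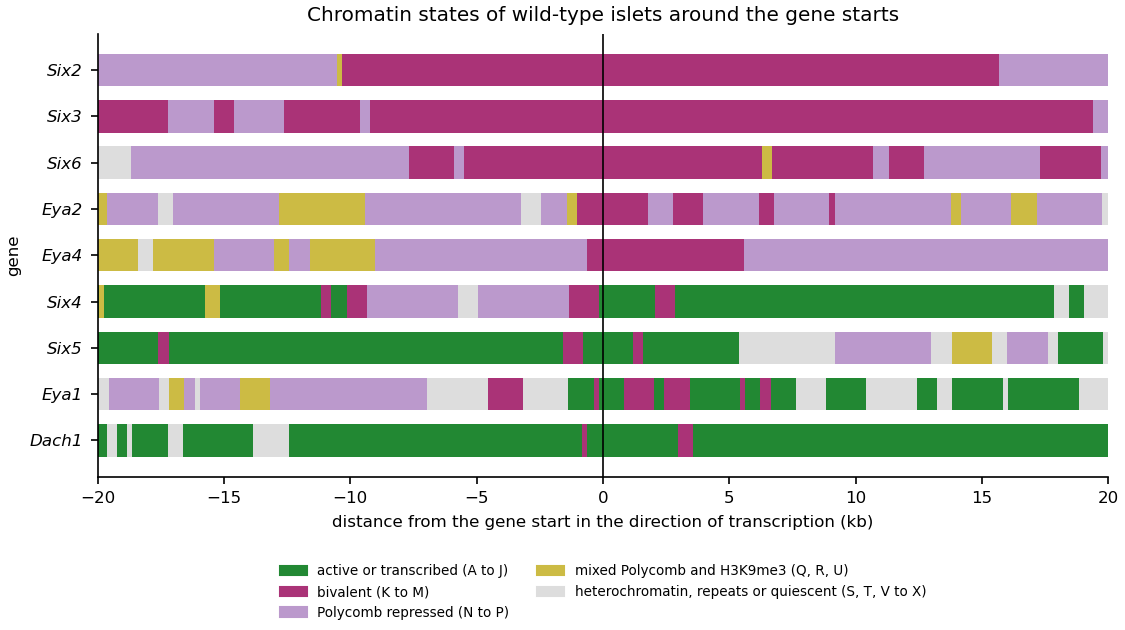
Chromatin states of wild-type islets from 20 kb before to 20 kb after the start of each gene, read in the direction of transcription, with colour for the class of state and the vertical line at the start. Six2, Six3 and Six6 sit in broad bivalent blocks, Eya2 and Eya4 in narrower bivalent blocks with Polycomb flanks, and Six4, Six5, Eya1 and Dach1 start in active states.

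The upstream sequences are shown for 3 bivalent genes that were higher in βEedKO and for 2 genes with active starts, because CpG-rich promoters are the usual sites of bivalent chromatin and the letters let their CG content be compared. They come from RefSeq on build GRCm38.p6, where 7 of 9 genes had an entry and Eya1 and Eya2 had none. Each runs 5′ to 3′ on the strand of the gene up to the RefSeq start or to the first annotated exon base. The RefSeq start of Six3 lies downstream of the 5′ end that GENCODE gives. Capitals mark CG dinucleotides. The positions are chr17:85688275-85688504 on the minus strand for Six2, chr17:85620584-85620833 on the plus strand for Six3, chr12:72939632-72939881 on the plus strand for Six6, chr7:19094294-19094543 on the plus strand for Six5 and chr14:98169766-98170015 on the minus strand for Dach1.
Six2: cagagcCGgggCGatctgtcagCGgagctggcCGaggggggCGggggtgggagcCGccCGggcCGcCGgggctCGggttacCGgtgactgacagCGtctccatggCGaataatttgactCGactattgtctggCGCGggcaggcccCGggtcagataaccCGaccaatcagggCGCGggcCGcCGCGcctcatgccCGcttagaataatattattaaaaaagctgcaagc
Six3: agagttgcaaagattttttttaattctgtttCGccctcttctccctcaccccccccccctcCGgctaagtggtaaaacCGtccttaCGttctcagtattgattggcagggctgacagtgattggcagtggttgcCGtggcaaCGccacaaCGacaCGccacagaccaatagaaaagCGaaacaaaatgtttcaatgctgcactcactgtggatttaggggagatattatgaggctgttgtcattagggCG
Six6: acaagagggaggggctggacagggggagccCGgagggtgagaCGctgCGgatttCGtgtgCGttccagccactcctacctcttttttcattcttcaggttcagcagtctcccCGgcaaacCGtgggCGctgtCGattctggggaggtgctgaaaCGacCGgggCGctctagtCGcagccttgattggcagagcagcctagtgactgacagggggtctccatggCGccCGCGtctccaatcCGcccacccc
Six5: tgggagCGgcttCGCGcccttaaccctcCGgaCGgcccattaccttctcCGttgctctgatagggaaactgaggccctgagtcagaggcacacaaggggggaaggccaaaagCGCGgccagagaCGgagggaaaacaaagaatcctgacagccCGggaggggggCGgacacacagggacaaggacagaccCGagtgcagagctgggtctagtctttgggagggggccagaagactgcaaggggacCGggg
Dach1: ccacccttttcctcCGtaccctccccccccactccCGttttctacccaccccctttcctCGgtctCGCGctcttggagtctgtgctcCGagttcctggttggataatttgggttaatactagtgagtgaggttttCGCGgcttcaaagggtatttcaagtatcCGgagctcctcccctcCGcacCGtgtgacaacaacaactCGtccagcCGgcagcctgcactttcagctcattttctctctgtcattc

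The number of CG dinucleotides in the 250 bases overlapped between genes with bivalent and with active starts. It was 26 at Six2, a count that 9.59% of all 32851 promoters reached, and 17 at Six6, which 23.5% reached. The Six2 sequence above stops at the first annotated exon base, so it shows 230 of the 250 bases, with 24 CG. It was 10 at Six3, which 37.8% reached, and 13 at both Six5 and Dach1, which 31.5% reached. The median of all promoters was 6 and the upper quartile 16. Six4 had 15 and 13 at its 2 RefSeq starts, and Eya4, also with a bivalent start, had 25 and 35. CG was searched as these 2 letters, which read the same on both strands.

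In wild-type islets, levels per kilobase of exon divided the genes in the same way as their starts. At 25 weeks the highest was Dach1, with 7.59 ± 1.42 CPM per kb (SD, n = 3), followed by Six5 with 6.19 ± 1.16, Six4 with 3.74 ± 0.134 and Eya1 with 2.51 ± 0.404. Dach1 and Six5 overlapped within their spread. Eya2 stood far below at 0.391 ± 0.151 CPM per kb, then Six2 at 0.0605 ± 0.0761 and Eya4 at 0.0267 ± 0.0129, which also overlapped. Six3 and Six6 had 0 reads in all 6 wild-type and all 5 heterozygous libraries. At 8 weeks the levels per kb were 5.02 ± 0.806 for Dach1, 4.52 ± 2.23 for Six5, 2.53 ± 0.748 for Eya1 and 2.37 ± 0.315 for Six4, neighbours that overlapped.

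In βEedKO at 25 weeks that order was different. Six2 had 8.50 ± 4.82 CPM per kb (SD, n = 2), Six3 had 6.03 ± 0.670 and Eya2 had 4.58 ± 0.0490, above Six5 with 3.62 ± 0.310 and Dach1 with 3.61 ± 1.11. Six4 with 1.46 ± 0.0214 and Eya1 with 1.12 ± 0.259 followed, then Six6 with 0.402 ± 0.156 and Eya4 with 0.0580 ± 0.00935. In whole islets, fewer cells of a type and less RNA per cell cannot be told apart.

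Eed itself was lower in βEedKO libraries. Eed stood at 13.4 to 14.9 CPM in βEedKO and 23.8 to 33.1 CPM in wild type at 8 weeks, and at 14.2 to 15.6 against 19.3 to 28.3 CPM at 25 weeks. Heterozygous libraries had 17.1 to 20.5 and 16.3 to 16.9 CPM. The ranges of βEedKO and wild type did not overlap at either age.

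Six2, a factor that keeps nephron progenitors of the kidney undifferentiated, had reads in every βEedKO library and next to none elsewhere. At 25 weeks it had 142 and 626 reads in βEedKO replicates 2 and 3 (10.8 and 25.2 CPM) against 0, 1 and 4 reads in wild type and 1 and 2 in HET. At 8 weeks βEedKO replicates 1, 4 and 5 had 14, 31 and 22 reads (0.663, 1.55 and 1.90 CPM), wild type 0, 2 and 0, and HET 1, 1 and 0. The βEedKO libraries were above all others at both ages. The log2 fold change over wild type at 25 weeks was 6.74 ± 0.98 (SE), with an adjusted p of 0.00350 in edgeR's quasi-likelihood test. At 8 weeks the pooled reads, 67 against 2, gave a ratio of 33.0 with an exact 95% counting interval from 8.79 to 278, and the adjusted p was 0.0834 in edgeR. That p was 0.00228 in DESeq2, 0.0341 with HET libraries in the fit, 0.0151 without the filter on low counts and 0.0470 without βEedKO replicate 1 at 8 weeks. These were the only alternatives that passed, 4 of 17, and in the others Six2 was not called at 8 weeks.

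Six3, a factor of the anterior neural plate and eye field, went from 0 reads to one of the highest levels of the family. At 25 weeks βEedKO replicates 2 and 3 had 466 and 751 reads (35.4 and 30.3 CPM). At 8 weeks βEedKO replicates 1, 4 and 5 had 22, 14 and 8 reads (1.04, 0.702 and 0.692 CPM). All 11 libraries of the other genotypes had 0 reads. With the 3 libraries of wild type together taken at no more than 3 reads, the limit that a count of 0 allows, Six3 was at least 329-fold higher at 25 weeks and at least 14.5-fold higher at 8 weeks. The adjusted p in edgeR was 0.000443 at 25 weeks and 0.0188 at 8 weeks. At 8 weeks that p rose to between 0.0577 and 0.0790 without wild-type replicate 3 or 4 or βEedKO replicate 4 or 5 of that age, or βEedKO replicate 2 or 3 of 25 weeks, and to 0.379 with the replicate number as a block.

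Six3os1, an RNA on the strand opposite to Six3, overlaps its annotated span by 4791 bp. It had 142 and 275 reads in βEedKO at 25 weeks, 3, 2 and 0 reads in βEedKO at 8 weeks and 0 reads in every wild-type and HET library. It was at least 113-fold higher at 25 weeks. Whether the counting used strand is not stated, so reads of Six3 and Six3os1 in the overlap cannot be told apart.

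Six6, the close relative of Six3 with a role in the retina and pituitary, was found at a low level. It had 27 and 29 reads in βEedKO at 25 weeks (2.05 and 1.17 CPM) and 2, 0 and 1 reads in βEedKO at 8 weeks. No wild-type or HET library had a read. At 25 weeks Six6 was at least 15.2-fold higher, with an adjusted p of 0.0471 in edgeR, and at 8 weeks both groups were at or under the floor. The 25-week p was 0.158 with the replicate block. It lay between 0.0510 and 0.213 without wild-type replicate 3 or 4 or βEedKO replicate 5 at 8 weeks, or without any single one of the 5 libraries at 25 weeks.

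Eya2, a coactivator of these homeodomain factors in muscle and cranial placodes, had a bivalent start and reads in every wild-type library, at a higher level per kb than Eya4, the other such gene. It had 13.5 and 13.7 CPM in βEedKO at 25 weeks against 0.654, 1.504 and 1.31 CPM in wild type and 1.14 and 0.758 CPM in HET. At 8 weeks βEedKO had 3.51, 2.51 and 3.03 CPM, wild type 2.09, 0.872 and 1.01 CPM and HET 1.04, 0.621 and 1.45 CPM. The βEedKO libraries were above all others at both ages. The log2 fold change over wild type was 3.43 ± 0.47 (SE) at 25 weeks, with an adjusted p of 0.00254 in edgeR, and 1.20 ± 0.41 at 8 weeks, with an adjusted p of 0.435.

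Eya4, an Eya gene of the inner ear and heart, had a bivalent start like the others but stayed at trace counts. It had 8 and 12 reads in βEedKO at 25 weeks (0.608 and 0.484 CPM), 1, 2 and 5 in wild type and 4 and 8 in HET. At 8 weeks there were 8, 3 and 3 reads in βEedKO, 2, 1 and 1 in wild type and 5, 15 and 1 in HET. The βEedKO libraries were above wild type at each age, while the highest level of all was a HET library at 8 weeks with 0.665 CPM. That library, HET replicate 2, stood apart in its skeletal muscle markers, 4 genes that summed to 666 CPM there and to 3.19 to 33.2 CPM in the other 15 libraries, and its mesenchymal markers summed to 218 CPM. Eya4 did not pass the filter on low counts in the fit of wild type and βEedKO, so 8 of 9 genes were fitted there.

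The other 4 genes, with active starts, had lower values in βEedKO at 25 weeks. The share of all genes whose libraries do not overlap between groups was not counted. Here and elsewhere, a lack of overlap is therefore a description from which nothing is read. Dach1, a corepressor that can turn targets of the network down, stood at 20.7 and 32.2 CPM in βEedKO against 44.2, 64.7 and 57.8 CPM in wild type, and HET had 61.7 and 45.5 CPM. Its log2 fold change was -1.13 ± 0.30 (SE), with an adjusted p of 0.0481 in edgeR. This call was lost with library size as the only scaling (adjusted p 0.478), without the filter (0.0747), and without wild-type replicate 3 or 4 or βEedKO replicate 4 at 8 weeks, wild-type replicate 3 or 4 at 25 weeks, or either βEedKO library of 25 weeks (0.0594 to 0.316).

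Six4, a homeodomain gene of muscle precursors that binds DNA with Eya partners, had 16.0 and 15.6 CPM in βEedKO at 25 weeks. Wild type had 39.4, 40.1 and 42.2 CPM, and HET 33.6 and 40.9 CPM. The log2 fold change was -1.41 ± 0.42 (SE) with an adjusted p of 0.0780 in edgeR. This p missed the threshold. The values of βEedKO lay below those of both other genotypes, which is given as a description. In DESeq2 the adjusted p was 0.0171, with HET libraries in the fit 0.0415, and without βEedKO replicate 1 or 5 at 8 weeks 0.00458 and 0.0409. These were the only alternatives that passed, 4 of 17, and in the others Six4 was not called.

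Eya1, a gene of ear, kidney and thymus formation, had 7.30 and 10.2 CPM in βEedKO at 25 weeks, against 16.99, 23.1 and 18.6 CPM in wild type and 23.4 and 23.0 CPM in HET, with no overlap. Its log2 fold change was -1.22 ± 0.33 (SE) and its adjusted p 0.0566 in edgeR. With the replicate block the adjusted p was 0.0416. It was 0.0118 in DESeq2, 0.0247 with HET libraries in the fit, and 0.0264 and 0.0392 without wild-type replicate 1 or βEedKO replicate 1 at 8 weeks. These were the only alternatives that passed, 5 of 17, and in the others Eya1 was not called.

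Six5, which lies next to the myotonic dystrophy kinase gene Dmpk with starts 10745 bp apart, had 11.6 and 10.2 CPM in βEedKO at 25 weeks. Wild type had 14.6, 21.0 and 20.3 CPM, and HET 19.9 and 25.4 CPM, with no overlap after TMM scaling. By library total alone, βEedKO replicate 3 (254 of 16565560 reads) lay above wild-type replicate 2 (67 of 4645393 reads). Its log2 fold change was -0.83 ± 0.44 (SE) with an adjusted p of 0.334 in edgeR. Dmpk had a log2 fold change of -1.05 ± 0.32 and an adjusted p of 0.0800.

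**Figure D2:**
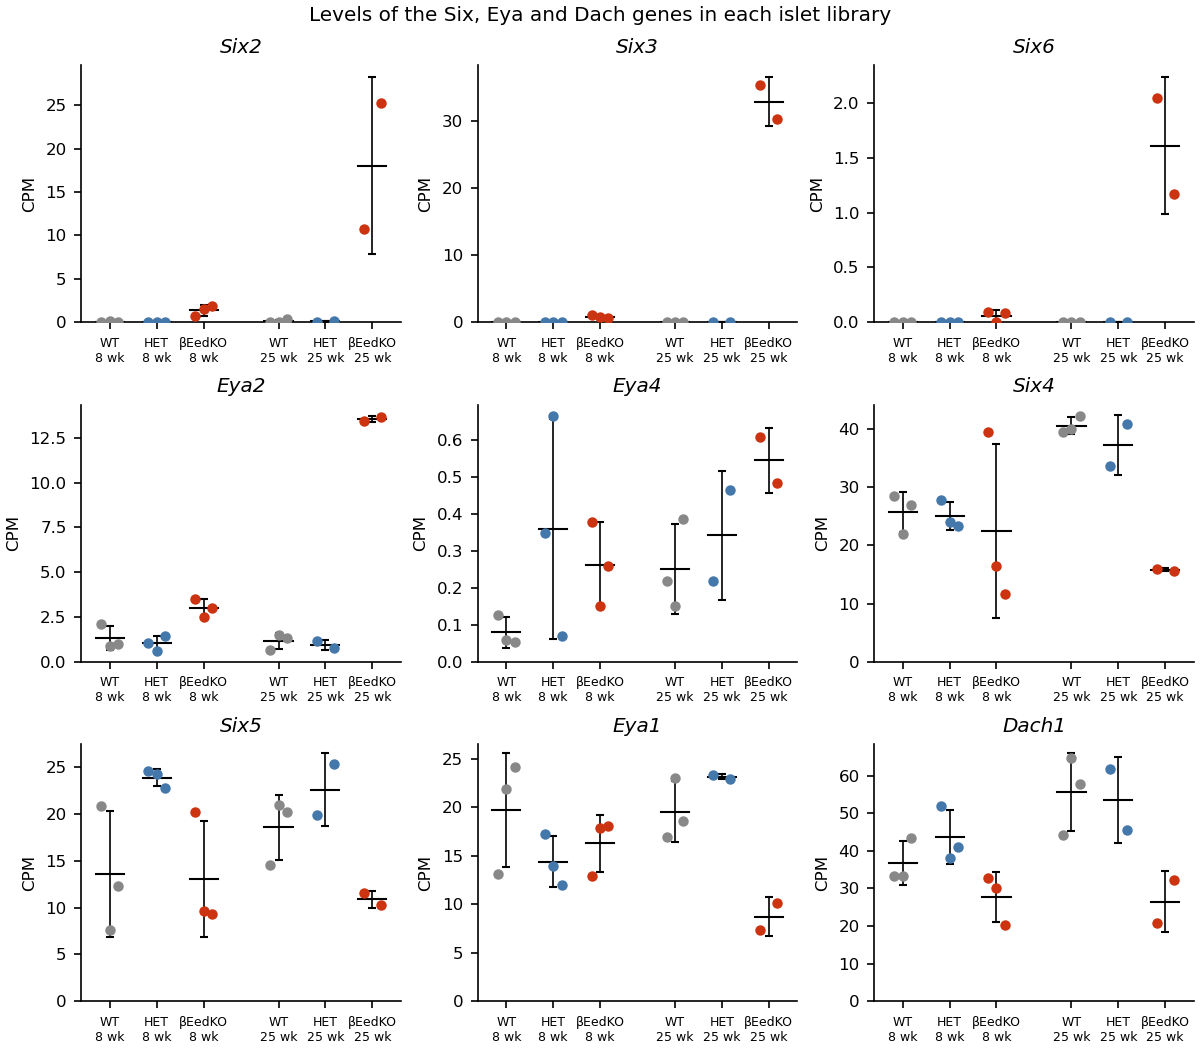
CPM (reads scaled to the library total with TMM factors) of each gene in the 16 islet libraries by genotype and age, with points for libraries and bars for the mean and SD. Six2, Six3, Six6 and Eya2 stand out in βEedKO at 25 weeks, where Six4, Six5, Eya1 and Dach1 lie below wild type, and Eya4 stays under 1 CPM in every library.

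In total, 5 of the 8 fitted genes passed an adjusted p of 0.05 between βEedKO and wild type at 25 weeks, 4 of them higher and Dach1 lower. The background was 6.6% of 18685 genes called, 4.58% higher and 2.02% lower. Of all these calls 69.4% were higher, and 91.1% with library size as the only scaling, which moved the median log2 fold change of all genes from 0.03 to 0.27. At 8 weeks 1 of 8 passed, Six3, where 0.434% of genes were called, 0.428% higher and 0.00535% lower. Because these contrasts chose the genes, nothing is read from the counts. At 8 weeks the 4 genes with active starts had log2 fold changes of -0.20 ± 0.36 for Six4, -0.05 ± 0.39 for Six5, -0.28 ± 0.28 for Eya1 and -0.41 ± 0.25 for Dach1, with adjusted p from 0.790 to 0.993 in edgeR. With library size as the only scaling, which moved the median log2 fold change of all genes from 0.00 to 0.20 at 8 weeks, Six4 and Six5 turned to 0.036 and 0.19. The βEedKO and wild-type libraries overlapped for Six4, Six5 and Eya1 at that age. For Dach1 the βEedKO libraries, at 32.8, 30.2 and 20.2 CPM, lay below wild type, at 33.4, 33.2 and 43.5 CPM.

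The difference between the βEedKO effects at 25 and 8 weeks reached the threshold for 0 of 8 genes in edgeR and for 1, Eya2, in DESeq2. Of all 18685 genes, edgeR called 0.198% and DESeq2 called 340 genes. Eya2 and Six4 had an unadjusted p under 0.05 in edgeR, as did 1450 of all 18685 genes. The difference for Eya2 was 2.24 ± 0.62 on the log2 scale (adjusted p 0.254 in edgeR) and that for Six4 was -1.22 ± 0.55 (adjusted p 0.642). For Six3 and Six6 the difference cannot be estimated, as wild type had 0 reads at both ages.

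**Figure D3:**
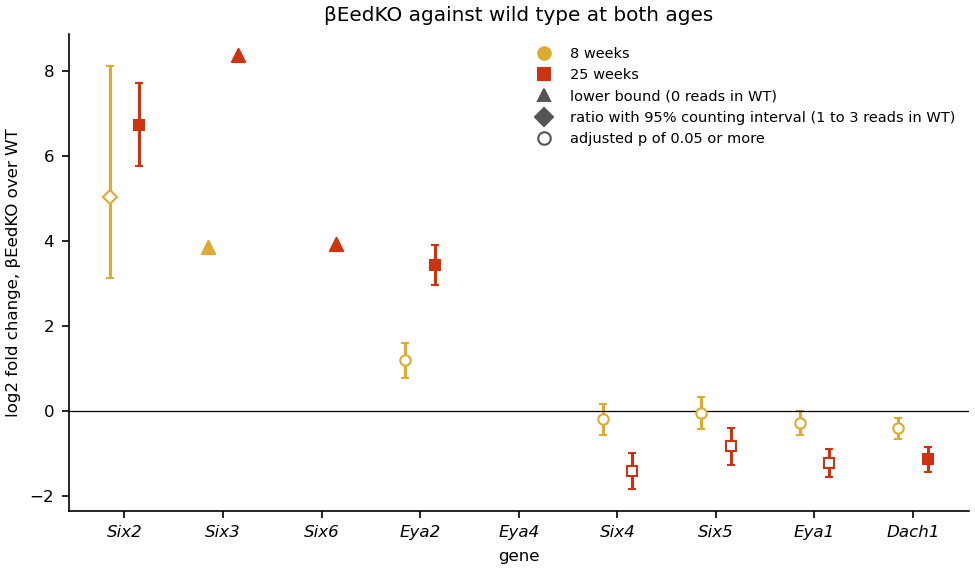
Log2 fold change of βEedKO over wild type with SE at 8 weeks (yellow) and 25 weeks (red). Triangles are lower bounds for genes with 0 wild-type reads, the diamond is a ratio with its 95% counting interval, and open symbols missed an adjusted p of 0.05, so Six2, Six3, Six6, Eya2 and Dach1 are filled at 25 weeks and only Six3 at 8 weeks.

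Against HET as the control, with the same βEedKO libraries, 5 of 9 genes passed at 25 weeks in the fit of all 6 groups (Six2, Six3, Six6 and Eya2 higher, Eya1 lower), with 8.36% of 18828 genes called (1574 genes, and from 302 without HET replicate 2 of that age to 2123 without βEedKO replicate 1 of 8 weeks). Dach1 had a log2 fold change of -1.02 ± 0.30 (SE) and an adjusted p of 0.0515 in edgeR. At 8 weeks 2 of 9 passed, Six2 and Six3, with 4.74% of genes called (892 genes, and from 143 without HET replicate 1 to 4014 without βEedKO replicate 1 of that age). In that comparison the log2 fold change of Eya2 was 1.55 ± 0.43 (SE) with an adjusted p of 0.0578. With the replicate block, 1 gene (Six3) passed at 25 weeks and 0 at 8 weeks.

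Marker genes of islet cell types moved in the same libraries. The 8 β-cell markers summed to 13948 and 17316 CPM in βEedKO at 25 weeks, against 123042 to 219991 CPM in wild type of that age, and 7 of 8 were called lower. The 8 mesenchymal markers summed to 275 to 382 CPM against 90.0 to 131 CPM, with 4 of 8 called higher (Col1a1, Col1a2, Pdgfra and Dcn), and the 7 duct markers to 576 to 656 against 257 to 309 CPM, with 3 of 7 called higher. The 9 acinar markers summed to 384356 CPM in βEedKO replicate 2 and 11830 CPM in replicate 3, and to 29174 to 211517 CPM in wild type. The 5 α-cell markers summed to 11418 to 11968 CPM against 7691 to 8877 CPM in wild type, with no overlap and 2 of 5 called higher (Irx2 and Irx1). Skeletal muscle markers, 4 genes, summed to 3.19 to 3.79 CPM in βEedKO at 25 weeks, below wild type at 4.36 to 33.2 CPM. None of the markers of these 6 lists was at 0 reads over the βEedKO group. At 8 weeks the β-cell sums overlapped, at 130658 to 214268 CPM in βEedKO and 137503 to 207033 CPM in wild type, and so did the mesenchymal sums, at 85.2 to 228 and 44.0 to 116 CPM. Six2 and Six3 had reads in all 3 βEedKO libraries at that age. The part of these markers in the values of the family at 25 weeks was not tested.

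In the comparisons that did not enter the choice of genes, none passed. Six3 and Six6 had 0 reads in wild type and HET and entered the fit only through βEedKO, so they could not be called here. Six2, with at most 4 reads in any wild-type or HET library, also passed the filter only through βEedKO. Its lack of a call here is therefore not informative. Between HET and wild type, 0 of 9 genes were called by edgeR at 8 weeks (2 at an unadjusted p under 0.05, Six5 and Eya4) and 0 of 9 at 25 weeks (0 at an unadjusted p under 0.05), and DESeq2 called 0 at both ages. The background was 0% of 18828 genes called in edgeR at each age, with 2743 and 210 genes at an unadjusted p under 0.05, and DESeq2 called 407 and 3 genes. At 8 weeks the count over all genes was 601 without wild-type replicate 1, 47 without βEedKO replicate 1, 19 without wild-type replicate 2 of 25 weeks and 1 without βEedKO replicate 4, and 0 without any other library, while 0 of the family genes were called without any of the 16. Without wild-type replicate 1 Six5 had a log2 fold change of 1.20 ± 0.34 (SE, adjusted p 0.0624 in edgeR). Six5 at 8 weeks was 24.6, 24.3 and 22.9 CPM in HET against 20.9, 7.61 and 12.3 CPM in wild type, with no overlap, and a log2 fold change of 0.82 ± 0.35 (SE, adjusted p 0.314 in edgeR). Eya4 had 2.14 ± 0.83 (adjusted p 0.289), on 21 reads in HET and 4 in wild type, and its libraries overlapped. Of the 21 reads 15 came from HET replicate 2, the library with 666 CPM of skeletal muscle markers, whose part in this value was not tested. Without that library HET had 5 and 1 reads and Eya4 did not pass the filter on low counts. At 25 weeks the log2 fold changes of the 7 genes with reads in either group ran from -0.81 for Six2 to 0.40 for Eya4. The Six2 value rests on 3 reads in HET and 5 in wild type, and the Eya4 value on 12 and 8.

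Age in wild type was the other comparison of this kind. Six3 and Six6, at 0 reads in wild type, could again not be called. Six2, with 5 wild-type reads at 25 weeks and 2 at 8 weeks, again passed the filter only through βEedKO. Between 25 and 8 weeks 0 of 8 genes were called in edgeR, 1 (Dach1) had an unadjusted p under 0.05, and DESeq2 called 0, with a background of 0% of 18685 genes in edgeR, 1898 at an unadjusted p under 0.05 and 139 called by DESeq2. Dach1 was higher in all 3 wild-type libraries of 25 weeks than in any of 8 weeks, with a log2 fold change of 0.60 ± 0.26 (SE, adjusted p 0.489 in edgeR). Six4 also did not overlap between the ages, with 0.66 ± 0.36 (adjusted p 0.526).

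Eya3, a widely expressed Eya, and Dach2, the relative of Dach1, are relatives outside the chosen genes. That choice used levels in βEedKO and wild-type islets, so the values of Eya3 and Dach2 are a description and not a test. Eya3 had 28.6 and 37.0 CPM in βEedKO at 25 weeks, below wild type at 42.9, 50.5 and 43.8 CPM, and a log2 fold change of -0.54 ± 0.34 (SE, adjusted p 0.435 in edgeR). Dach2 overlapped between the groups, with 1.98 and 2.58 against 1.96, 4.06 and 3.79 CPM. Its log2 fold change was -0.59 ± 0.48 (SE, adjusted p 0.558 in edgeR).

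Partners and targets of the network were a list of 29 genes, of which 24 could be fitted. The list was drawn up with results of the same contrast known, so its counts are not independent evidence. At 25 weeks 5 of 24 were called between βEedKO and wild type, 3 higher and 2 lower, or 20.8% of those fitted, beside 6.6% of all genes, from which nothing is read. The median log2 fold change was -0.08 over 13 partners and 0.77 over 11 targets, against 0.03 over all genes, and the same with genes at 0 reads set to their bound. At 8 weeks 0 of 24 were called in edgeR, 5 had an unadjusted p under 0.05, and DESeq2 called 2 (Pax2 and Shh). Of all 18685 genes, edgeR called 0.434%, 1470 had an unadjusted p under 0.05 and DESeq2 called 393. Nothing is read from these counts either.

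Among partners, the Pax genes that act upstream of the network moved apart. In wild-type islets the start of Pax2 lay in state L, that of Pax3 in state M and that of Pax6 in state A. Pax2, a factor of kidney, eye and midbrain, had 138 and 293 reads in βEedKO at 25 weeks (10.5 and 11.8 CPM) and 31, 13 and 1 reads at 8 weeks, with 0 reads in every wild-type and HET library. It was at least 117-fold higher at 25 weeks (adjusted p 0.0135 in edgeR) and at least 14.8-fold higher at 8 weeks (adjusted p 0.197). Pax3, a factor of neural crest and muscle precursors, had 152 and 262 reads at 25 weeks, at least 112-fold higher (adjusted p 0.00417), and 1, 2 and 0 reads in βEedKO at 8 weeks.

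Pax6, the Pax factor of islet endocrine cells, fell. It had 76.8 and 117 CPM in βEedKO at 25 weeks against 327, 413 and 360 CPM in wild type, a log2 fold change of -1.97 ± 0.29 (SE, adjusted p 0.00347 in edgeR). At 8 weeks it was -0.21 ± 0.24 (adjusted p 0.920), with overlapping libraries. Pax8 had 0 to 15 reads a library and did not pass the filter.

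The corepressors of the Groucho family that Six3 and Six6 recruit showed no call in edgeR. Tle1 had a log2 fold change of 0.87 ± 0.27 (SE, adjusted p 0.0934) at 25 weeks and Tle4 of 1.30 ± 0.48 (adjusted p 0.148), and βEedKO lay above wild type for both. With the replicate block Tle1, Tle4 and Myc passed in addition and Shh did not, so that 7 of 24 genes were called. Sobp, the sine oculis binding protein, had -0.97 ± 0.31 (adjusted p 0.101). Tle2, Tle3, Aes, Ski, Skil, Mcrs1 and H2afx, which stand for corepressors, Dach-binding proteins and the histone substrate of Eya phosphatases, had log2 fold changes from -0.31 to 0.32.

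Among targets, Shh, a secreted morphogen under the control of Six3 in the forebrain, had 50 and 80 reads in βEedKO at 25 weeks against 0, 1 and 0 in wild type, a ratio of 106 with an exact 95% counting interval from 18.6 to 4200 (adjusted p 0.0102 in edgeR, 0.0699 with the replicate block). At 8 weeks it had 3, 10 and 5 reads against 0, at least 5.91-fold higher (adjusted p 0.136). Wnt4, a signal of kidney epithelium that Six2 holds back, fell from 207, 203 and 171 CPM in wild type to 52.7 and 80.3 CPM at 25 weeks, a log2 fold change of -1.60 ± 0.25 (SE, adjusted p 0.00468 in edgeR). In wild-type islets Shh started in state M and Wnt4 in state A. Gdnf, Sall1 and Ccnd1 also started in L or M, and Tle1 and Ezr in A, and none of these was called. Whether their own chromatin state or the network had a part in these values was not tested. Without βEedKO replicate 2 of 25 weeks the list had 2 calls, Pax3 and Pax6. Without replicate 3 it had 3, Pax3, Pax6 and Wnt4.

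The kidney progenitor genes that accompany Six2 did not pass in edgeR. Cited1 had a log2 fold change of 3.10 ± 0.93 (SE, adjusted p 0.0800), with 3.19 to 6.41 CPM in βEedKO against 0.301 to 1.09 CPM in wild type at 25 weeks. Sall1 had 0.86 ± 0.54 (adjusted p 0.420), and Gdnf, with 18 reads against 3, a ratio of 4.87 with an exact 95% counting interval from 1.42 to 25.8 (adjusted p 0.399). The fitted targets Slc12a2, Ccnd1, Myc, Ezr and Cdkn1b had log2 fold changes from -0.26 to 0.91. The myogenic targets Myog and Myod1 did not pass the filter, and Myog had 0 reads in all βEedKO libraries.

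**Figure D4:**
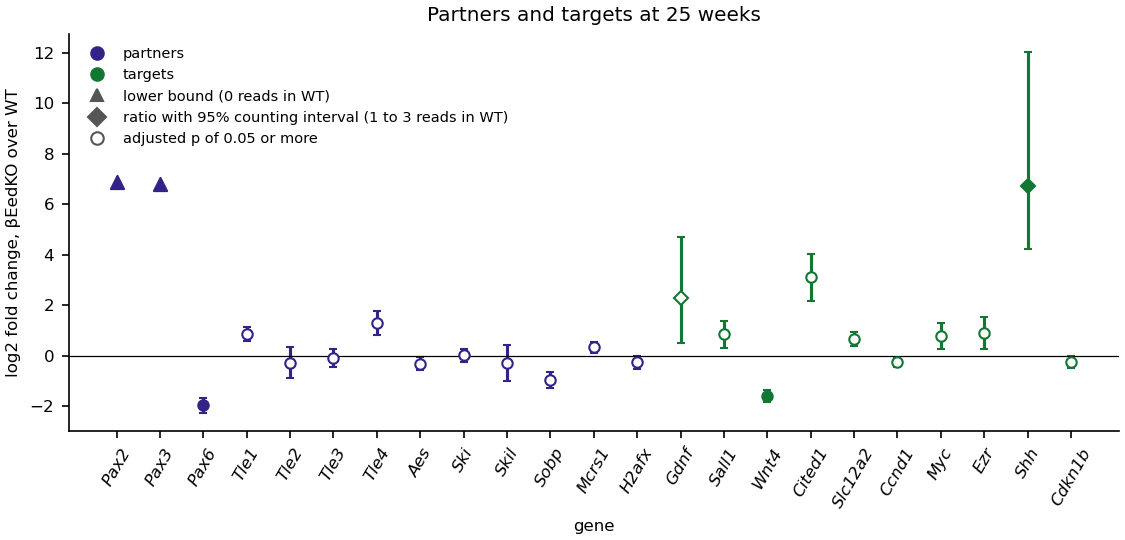
Log2 fold change of βEedKO over wild type at 25 weeks with SE for 13 partners and 10 of the 11 targets that could be fitted. Triangles are lower bounds for genes with 0 wild-type reads, diamonds (Gdnf and Shh) are ratios with 95% counting intervals, and filled symbols mark the 5 genes that passed, Pax2, Pax3 and Shh above 0 and Pax6 and Wnt4 below.

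Patterns over the 16 libraries were compared by Pearson's r of log2 CPM, with a prior count of 2, as a description. The nearest genes outside the family were Evx1 and Foxf2 for Six2 (r = 0.976 and 0.973), Hmx1 and Gm43050 for Six3 (0.997 and 0.994), Rhcg and Pax9 for Six6 (0.997 and 0.992) and Cnpy1 and Samd14 for Eya2 (0.964 and 0.962). For the genes with active starts they were Xk and Adam22 for Six4 (0.943 and 0.926), Ampd2 and Pik3r2 for Six5 (0.984 and 0.979), Dock11 and Rragd for Eya1 (0.940 and 0.934) and Ank2 and Syt14 for Dach1 (0.965 and 0.956). Within the family, Six2, Six3, Six6 and Eya2 had r from 0.881 to 0.960 with each other. Six4 and Dach1 had 0.798, and Six5 and Eya1 0.0683. These values share libraries and their depth, and those of the bivalent genes rest on the 2 βEedKO libraries of 25 weeks, which hold most of their reads.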

How the data were processed

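The deposited values are raw read counts per gene in 16 islet libraries, made by the authors with TopHat2 2.0.13 on GRCm38 and featureCounts of Subread 1.5.0-p1 with the GENCODE M9 annotation. Whether the counting used strand is not given in the sources used here, and reads of close paralogs remain uncertain. The authors' chromatin states of wild-type islets were deposited as segments in 200 bp bins with 24 letters, a category per segment that the authors learned from averaged replicates.

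Counts were tested with edgeR 4.0.16 (quasi-likelihood, TMM, filterByExpr, Benjamini-Hochberg over all genes that passed, threshold 0.05) in R 4.3.3. The contrasts of βEedKO with wild type and of age used 11 libraries (18685 genes), and those with HET all 16 (18828 genes). Alternatives were DESeq2 1.42.0, other scalings, no filter, a replicate block and leaving out each library. The fitting was tested on simulated counts. Libraries of wild type and βEedKO that carry the same replicate number were taken as paired in the block, because their deviations from the group means correlated (0.457 and 0.163 at 8 weeks, 0.176 and 0.255 at 25 weeks). At 8 weeks libraries with different numbers correlated as highly (wild type 3 with βEedKO 5 at 0.450, wild type 4 with βEedKO 5 at 0.329), so the pairing is a weak one. The block also grouped HET libraries by number, for which no such correlation was computed. A library whose number no other library of its age shared added nothing to the contrast, as with wild type 3 and βEedKO 5 at 8 weeks without HET. Fits with the block therefore rest on fewer libraries. The labels do not say what a number marks. Named genes were the members, their relatives, neighbours, partners, targets and markers, and the 2 genes most alike in pattern. Members and lists were chosen with earlier results of these data known. The intervals around ratios cover counting error only. Bounds cover it only for the group at 0 reads and take the βEedKO reads as exact. A further gene of the homeobox family and 1 gene of the target list, which stays in that list's counts, are not reported here, and single-cell and ChIP signal files were not used here.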

Additional observations from a re-analysis of the deposited data

How the results depend on the processing

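At 25 weeks Six2, Six3 and Eya2 were called in all 17 alternatives, and all 8 fitted genes kept their direction. Six6 and Dach1 were called in 8 of 17 each, Eya1 in 5, Six4 in 4 and Six5 in 0. With library size alone, 3 partners and targets were called at 25 weeks, beside 884 of all 18685 genes. The same scaling called 3 family genes against HET at 25 weeks, and at 8 weeks Six4 was 0.036 and Six5 0.19 (log2). Without the filter, 2 family genes and 1 partner were called at 8 weeks. DESeq2 called 8 partners and targets at 25 weeks, 2 at 8 weeks, 2 family genes at 8 weeks and 1 for the difference between ages. With HET libraries in the fit, 2 family genes were called at 8 weeks, beside 118 of all 18828 genes. With the replicate block, 0 family genes were called at 8 weeks, and 0 and 1 against HET at 8 and 25 weeks. Over all genes the block called 0 genes at 8 weeks and 1027 at 25 weeks, and it could not be fitted for age in wild type. DESeq2 called 2093 genes at 25 weeks and 393 at 8 weeks, 340 for the difference between ages, and 2303 and 2696 against HET at 8 and 25 weeks, and no filter gave 137 at 8 weeks. For the difference between ages the count was 11 with library size alone, 2 with the block, 73 without the filter and 90 with HET libraries in the fit. Against HET, library size alone gave 505 and 913 genes and the block 1 and 429, at 8 and 25 weeks. Between HET and wild type at 8 weeks no filter gave 5 genes, and for age in wild type it gave 8, HET libraries in the fit 4 and library size alone 1. The cause of these shifts was not tested.

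Leaving out 1 library, the family count against wild type ran from 3 to 7 at 25 weeks and from 0 to 2 at 8 weeks, and against HET from 1 to 5 at 8 weeks and from 3 to 7 at 25 weeks. The 3 calls left at 25 weeks against wild type were Six2, Six3 and Eya2, without wild-type replicate 3 or 4 of either age or βEedKO replicate 2 or 3 of 25 weeks. Over all genes the count ran from 392 to 1609 at 25 weeks and from 18 to 135 at 8 weeks. Partners and targets ran from 2 to 6 at 25 weeks and stayed at 0 at 8 weeks. The 8-week log2 fold change ran from -0.87 to 0.11 for Six4 and from -0.50 to 0.37 for Six5, with a change of sign for Six4 without βEedKO replicate 5 and for Six5 without wild-type replicate 1 (0.37) or βEedKO replicate 4 (0.12) or 5 (0.14).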

Other observations

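At 8 weeks Six5 and Tle2 showed the same split among libraries. Six5 was 20.9 CPM in wild-type replicate 1 and 20.3 CPM in βEedKO replicate 1, near the HET libraries at 22.9 to 24.6 CPM, while the other wild-type and βEedKO libraries had 7.61 to 12.3 CPM. Tle2 was 46.3 and 54.7 CPM in the same replicates 1, 35.1 to 48.4 CPM in HET and 10.9 to 19.1 CPM in the others. These libraries were picked out after their values were seen.

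With 2 βEedKO libraries at 25 weeks, spread within that group rests on 1 difference. The shallowest library, wild-type replicate 2 of 25 weeks, held 4645393 reads, so a gene at 0 reads there is bounded less tightly than elsewhere. Islets were sequenced whole, and chromatin states are of wild-type islets only.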
